A study of Mus musculus with 36 samples.

Results

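The 5 genes of the Ly6 family of surface antigens, Ly6a, Ly6e, Ly6i, Ly6c1 and Ly6c2, were followed through 36 RNA-seq libraries of RAW264.7 cells, an established mouse macrophage line. They are 5 of the 49568 gene names in the count tables, and they were selected on a measured value, the rise of Ly6a from near 0 in cells given the 65–79*PE peptide with IFNγ. For that reason no test is given for Ly6a in the IFNγ series, and the contrast of 65–79*PE against PBS in that series is described without a test for all 5 genes. The cells had been kept for 72 h with a 15-mer peptide from the HLA-DRβ chain at 100 µg/ml, either 65–79*SE (coded by a disease-risk allele) or 65–79*PE (coded by a protective allele). The cytokine was IFNγ or Il-4 at 5 ng/ml, each in a series of its own, and each series had PBS, 65–79*SE and 65–79*PE groups of 6 libraries. One description of the experiment gives the cytokine to cells with and without peptide, while the methods and labels also name cells without cytokine, and none of them says which the PBS cells were, so a difference from PBS may be of peptide alone or of peptide and cytokine together. All groups are cultures of 1 transformed line, described as biological replicates from separate experiments without a statement of which replicate came from which, so p-values measure only the spread between these libraries.

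Ly6 proteins are small, cysteine-rich proteins held on the outer face of the cell membrane by a glycolipid anchor. Ly6a (Sca-1) marks blood stem cells in the mouse and is a classical interferon-inducible surface antigen of lymphocytes. Ly6c1 and Ly6c2 together carry the Ly6C antigen that separates inflammatory from patrolling monocytes, and Ly6e (Sca-2) is an immature thymocyte antigen that is also made by many other cells and restricts coronavirus entry. Interferon-γ acts through its receptor and the kinases Jak1 and Jak2, and induces transcription factors such as Irf1.

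The members sit together on mouse chromosome 15 (GRCm38, GENCODE M21). Ly6e lies at chr15:74955051-74959905 on the plus strand, and the others lie on the minus strand: Ly6i at chr15:74979534-74983430, Ly6a at chr15:74994877-74998031, Ly6c1 at chr15:75044018-75048830 and Ly6c2 at chr15:75108158-75111970. All 5 are protein-coding, and none overlaps another annotated gene. The first 90 coding bases of each are shown because the counts below rest on reads that must be told apart between these genes. Capitals mark the positions that differ from Ly6c1, base by base from the start codon, without gaps.
Ly6c1: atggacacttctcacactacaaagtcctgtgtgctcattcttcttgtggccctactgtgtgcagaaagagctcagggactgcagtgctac
Ly6c2: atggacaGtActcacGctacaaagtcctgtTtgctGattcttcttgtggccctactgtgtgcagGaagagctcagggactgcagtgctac
Ly6a: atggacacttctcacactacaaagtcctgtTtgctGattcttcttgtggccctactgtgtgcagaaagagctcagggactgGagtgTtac
Ly6i: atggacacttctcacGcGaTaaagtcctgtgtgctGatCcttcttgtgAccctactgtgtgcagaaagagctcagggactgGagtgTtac
Ly6e: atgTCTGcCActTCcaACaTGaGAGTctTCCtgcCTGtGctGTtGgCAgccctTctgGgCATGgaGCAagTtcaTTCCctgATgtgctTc
Over these 90 bases Ly6a differed from Ly6c1 at 4 positions, Ly6c2 at 6, Ly6i at 8 and Ly6e at 45. Over the whole coding sequence, Ly6c1 and Ly6c2 were 97.7% identical, Ly6a and Ly6i 86.4%, and Ly6a and Ly6c1 82.0%, whereas Ly6e was 50% identical to Ly6a and less to the others. Of all 100-base windows of the annotated transcripts, the length of the reads, 10.1% in Ly6c1 and 5.81% in Ly6c2 were found in another gene as well, against 1.45% in Ly6a and 0 in Ly6i and Ly6e. Only uniquely aligned reads were counted, so the low counts of Ly6c1 and Ly6c2 are uncertain to the extent that reads could be lost or exchanged between these near-copies.

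Replicates 1–3 and 4–6 carried different naming schemes in the tables and are given apart throughout. Levels are given as CPM, that is counts scaled to a common library total after TMM adjustment. The library totals were 20.67 to 63.16 M counts in the IFNγ series and 17.05 to 30.64 M in the Il-4 series, so that 3 counts, the most that a count of 0 allows at 95% confidence, were 0.0475 to 0.145 CPM and 0.0979 to 0.176 CPM; these limits cover counting error only. All 8 macrophage markers examined, among them Adgre1, Cd68 and Csf1r, had over 3 counts in every library, and none of the 5 stem and progenitor markers (Kit, Cd34, Flt3, Slamf1, Prom1) did in all libraries of any group. A group of 3 libraries of the IFNγ series stood apart from their label. In those labelled 65–79*SE, replicates 4–6, Irf1 was at 13.8 ± 0.772 CPM and Irf8 at 50.7 ± 1.71 CPM (SD, n = 3), against 14.0 ± 0.394 and 51.5 ± 2.33 CPM in PBS and 117 ± 1.95 and 102 ± 2.68 CPM with 65–79*PE in the same set. In replicates 1–3, 65–79*SE libraries had 68.0 ± 4.4 CPM of Irf1 and 134 ± 8.94 CPM of Irf8, against 15.2 ± 0.803 and 70.7 ± 5.93 CPM in PBS. The 3 libraries are therefore named by their label below, and each result that uses them is given beside the result from replicates 1–3.

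**Figure D1:**
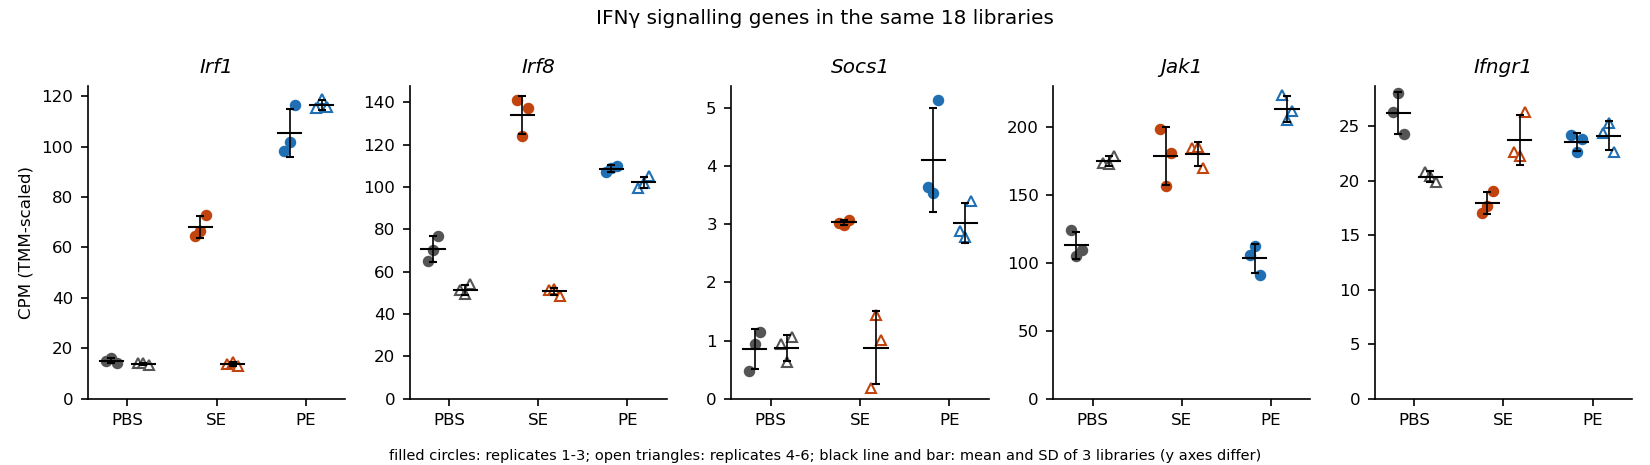
CPM of 5 IFNγ signalling genes (y axes, one scale per gene) in PBS, 65–79*SE (SE) and 65–79*PE (PE) libraries of the IFNγ series, with replicates 1–3 as filled circles, 4–6 as open triangles, and mean and SD of 3 libraries in black. The triangles labelled SE sit at the PBS level for Irf1, Irf8 and Socs1, and the circles labelled SE sit above it.

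Ly6a was the member whose level changed most. PBS libraries of replicates 1–3 held 4, 1 and 1 counts of it (0.112, 0.0303 and 0.0312 CPM), and those of replicates 4–6 held 3, 0 and 0. With 65–79*PE it stood at 233, 236 and 259 CPM in the first set, replicates 1–3, and reached 116, 122 and 106 CPM in replicates 4–6. All PE libraries lay far above all PBS libraries, and those of replicates 4–6 reached a lower level than those of 1–3. The summed counts of 25737 against 6 in replicates 1–3 gave a ratio of 4081 (95% counting interval 1875 to 11120), and 10753 against 3 in replicates 4–6 a ratio of 4676 (1600 to 22680). These are the values that chose the members.

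The rise of Ly6a was not a feature of 65–79*PE alone. The libraries labelled 65–79*SE had 217, 218 and 235 CPM in replicates 1–3, and 2, 1 and 0 counts in replicates 4–6. In replicates 1–3 the SE and PE ranges overlapped (217 to 235 against 233 to 259 CPM), and SE exceeded PBS by a ratio of 3761 (95% counting interval 1728 to 10250). In replicates 4–6 the libraries labelled 65–79*SE were within the PBS range of counts, so that Ly6a separated PE from SE there and not in replicates 1–3. In the Il-4 series Ly6a did not rise with either peptide: 15 of 18 libraries held 0 counts, PBS replicate 2 and 65–79*SE replicate 3 held 4 each, and PBS replicate 4 held 1.

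**Figure D2:**
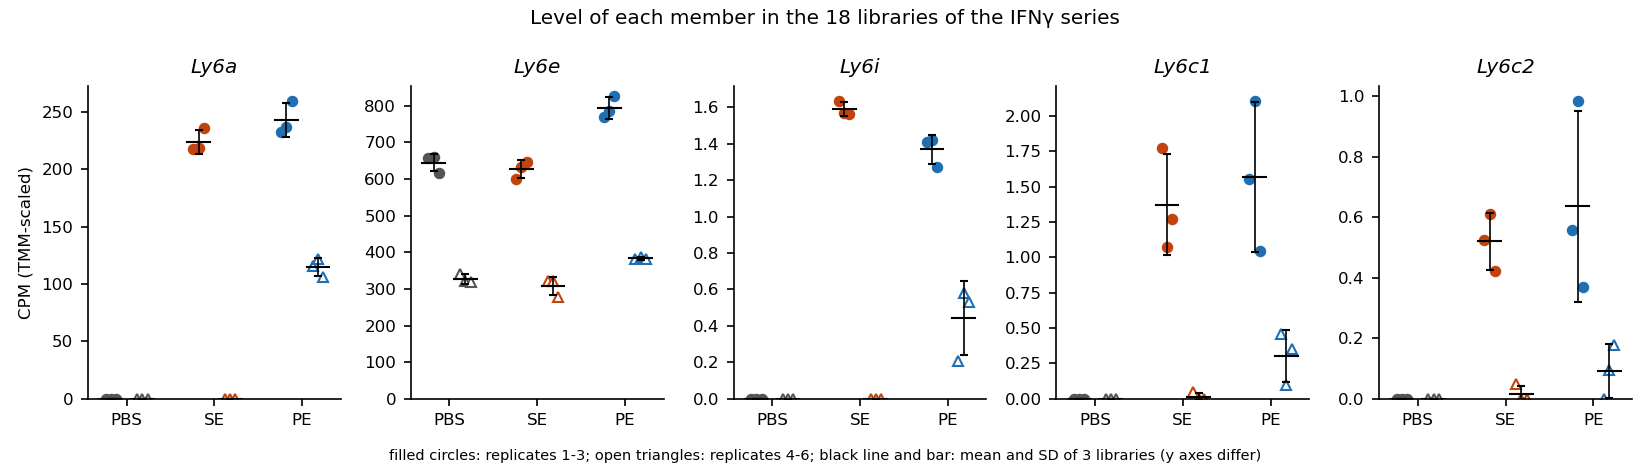
CPM of each member (y axes, one scale per gene) in the 18 libraries of the IFNγ series, by group (x axes), with replicates 1–3 as filled circles, 4–6 as open triangles, and mean and SD of 3 libraries in black. Ly6a, Ly6i, Ly6c1 and Ly6c2 lie at or near 0 in PBS and in the triangles labelled SE, while Ly6e is high in all libraries and about 2 times higher in replicates 1–3.

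Per kb of exon, the level of Ly6a with peptide and IFNγ was close to that of Ly6e, the member that PBS cells already made. Exons of all annotated transcripts were joined for this length, which was 1205 bases for Ly6a and 3784 for Ly6e. Their longest transcripts have 955 and 2281 bases, so the closeness depends on the length used. In CPM, Ly6e stood at 794 and Ly6a at 243 with 65–79*PE in replicates 1–3. With 65–79*PE in replicates 1–3, Ly6a was at 202 ± 12 CPM per kb and Ly6e at 210 ± 7.81 (SD, n = 3). The values in replicates 4–6 were 95.3 ± 6.57 for Ly6a and 101 ± 0.875 for Ly6e. The ratio of Ly6a to Ly6e per kb within a library ran from 0.946 to 0.986 and from 0.874 to 0.99 in these sets, and from 1.08 to 1.14 with 65–79*SE in replicates 1–3. The other members were far lower: with 65–79*PE in replicates 1–3, Ly6i was at 1.18 ± 0.0707, Ly6c1 at 0.936 ± 0.316 and Ly6c2 at 0.232 ± 0.115 CPM per kb. On this length the order was thus Ly6e and Ly6a, whose values overlapped, then Ly6i and Ly6c1, whose values overlapped too, then Ly6c2.

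Ly6i is the closest relative of Ly6a among the members and its neighbour on the chromosome. It had 0 counts in all 6 PBS libraries of the IFNγ series. The libraries labelled 65–79*SE held 59, 54 and 59 counts (1.63, 1.57 and 1.56 CPM) in replicates 1–3 and 0 in replicates 4–6. With 65–79*PE it had 48, 52 and 45 counts (1.41, 1.42 and 1.27 CPM) and then 5, 18 and 21 counts (0.208, 0.581 and 0.533 CPM). Against PBS, the 65–79*SE libraries of replicates 1–3 had at least 53.4-fold more Ly6i, with 3 counts over the PBS group as the floor.

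Ly6c1 and Ly6c2 followed the same groups at lower levels. Ly6c1 had 0 counts in every PBS library, 64, 37 and 48 counts in the SE libraries of replicates 1–3, and 1, 0 and 0 counts in those labelled SE of replicates 4–6. With 65–79*PE it had 53, 77 and 37 counts and then 11, 3 and 14. Ly6c2 had 0 counts with PBS, 19, 21 and 16 and then 1, 0 and 0 in the libraries labelled SE, and 19, 36 and 13 and then 0, 3 and 7 with PE. Against PBS in replicates 1–3, 65–79*SE libraries had at least 46.2-fold more Ly6c1 and at least 17.4-fold more Ly6c2.

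The levels of these 3 genes were a small share of Ly6a. In libraries with Ly6a, the Ly6i count was 0.18 to 0.752% of the Ly6a count, the Ly6c1 count 0.0793 to 0.89% and the Ly6c2 count 0 to 0.416%. Ly6i shared no 100-base window with another gene, whereas 10.1% of the Ly6c1 windows were shared with Ly6a or Ly6c2. Whether reads of Ly6a contributed to the counts of Ly6c1 was not tested.

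These 3 genes were at 0 with PBS and passed the filter on low counts through peptide libraries in which they were high, so their differences from PBS are given as counts and folds, with no test. Ly6i in replicates 4–6 had 0 counts in PBS and in the libraries labelled SE, and Ly6c1 and Ly6c2 had 1 count against 0, too few to compare. Ly6e, the one member with counts in every library that was tested against PBS, was not called with 65–79*SE in either set. A call needed an adjusted p under 0.05 and a fold over 1.5, by edgeR's quasi-likelihood test, and 21.2% of the 16845 genes tested were called in replicates 1–3 and 2.04% in replicates 4–6.

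No difference between the peptides was detected in these low genes in replicates 1–3. The log2 difference of 65–79*SE minus 65–79*PE was 0.21 for Ly6i (95% interval −0.41 to 0.84, adjusted p = 0.669, edgeR), −0.19 for Ly6c1 (−0.99 to 0.60, adjusted p = 0.775, edgeR) and −0.30 for Ly6c2 (−1.32 to 0.73, adjusted p = 0.727, edgeR), intervals wide enough to hold a 1.5-fold difference in each case. By edgeR 0 of the 4 members were called, 1 (Ly6e) had an unadjusted p under 0.05, and DESeq2 called 0, beside 5.33% of all genes called by edgeR. In replicates 4–6, Ly6i (44 counts with PE against 0, at least 10.7-fold; adjusted p = 0.000131, edgeR) and Ly6c1 (28 counts against 1, ratio 20.4 with a counting interval of 3.37 to 833; adjusted p = 0.00739, edgeR) were called lower in the libraries labelled 65–79*SE, beside 13.9% of all genes. Ly6c2 had 10 counts against 1 and missed the threshold (adjusted p = 0.157, edgeR). The test of the set difference itself, SE against PE in replicates 4–6 minus replicates 1–3, did not pass for Ly6e (adjusted p = 0.912, edgeR), where 28.8% of all genes passed. For Ly6i, Ly6c1 and Ly6c2 no test of it is given. The peptide libraries of replicates 1–3 carried these genes past the filter on low counts and are part of that difference. The calls of Ly6i and Ly6c1 in replicates 4–6 rest on the libraries labelled 65–79*SE and have no value without them. Both genes passed the filter in replicates 1–3 alone, so the libraries compared in replicates 4–6 did not decide their entry. In replicates 4–6 alone Ly6e was the one of the 4 to pass it. Without replicate 6 only 1 of the 4 was called.

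Ly6e, in contrast to its neighbours, was abundant in every library, and its differences between groups of the IFNγ series were small. In the IFNγ series it stood at 658, 659 and 617 CPM in PBS libraries of replicates 1–3, at 601, 634 and 647 CPM in their SE and at 770, 785 and 827 CPM in their PE libraries. The levels in replicates 4–6 were 341, 321 and 319 CPM with PBS, 322, 321 and 279 in the libraries labelled SE and 381, 387 and 382 with PE. In both sets all PE libraries lay above all SE and all PBS libraries, while SE and PBS overlapped. The share of all genes whose groups separate in this way is not given, so the separation is a description only.

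The difference of 65–79*SE from 65–79*PE in Ly6e was of the same size in both sets. Ly6e was lower with SE by a log2 change of −0.34 (95% interval −0.48 to −0.20, adjusted p = 0.000908, edgeR) in replicates 1–3 and of −0.32 (−0.46 to −0.18, adjusted p = 0.000689, edgeR) in the libraries labelled SE of replicates 4–6. Both passed the adjusted p and neither reached the 1.5-fold threshold, so Ly6e is not among the members called. On the adjusted p alone, 3036 of the 16845 genes tested passed in replicates 1–3 and 5378 in replicates 4–6. Against PBS, SE libraries differed by −0.04 (−0.18 to 0.10, adjusted p = 0.667, edgeR) and −0.09 (−0.23 to 0.05, adjusted p = 0.492, edgeR), and these intervals exclude a 1.5-fold change. PE libraries were above PBS by a log2 value of 0.30 in replicates 1–3 and 0.23 in replicates 4–6, a description only, since the choice of members used this contrast.

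**Figure D3:**
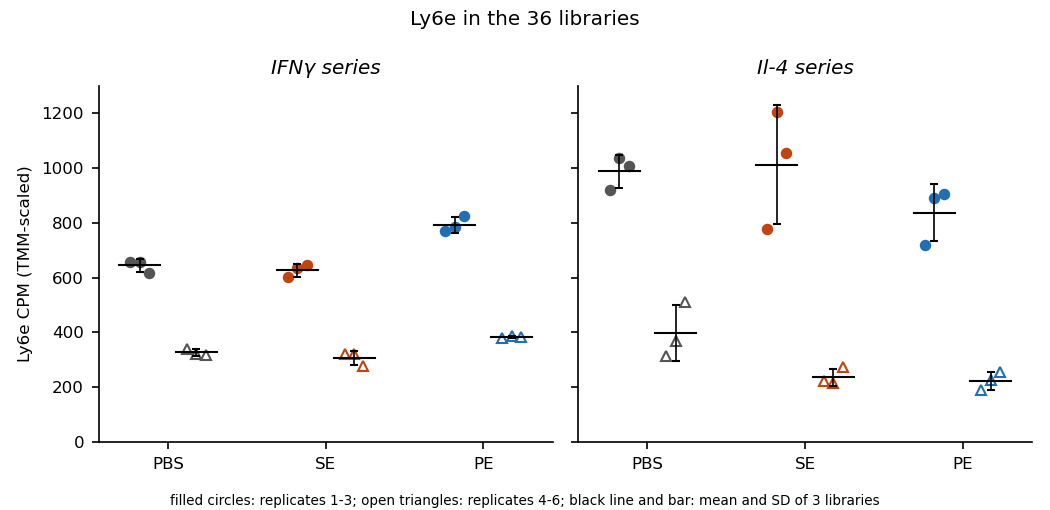
Ly6e CPM (y axis from 0) in all 36 libraries, by group (x axis) and series (panels), with replicates 1–3 as filled circles, 4–6 as open triangles, and mean and SD of 3 libraries in black. Replicates 1–3 sit above replicates 4–6 in every group, by a ratio of means of 1.97 to 2.07 in the IFNγ series and 2.48 to 4.28 in the Il-4 series.

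In the Il-4 series Ly6e was the only member above the filter on low counts, and its calls were in replicates 4–6. In replicates 1–3 it stood at 921, 1036 and 1007 CPM with PBS, 777, 1204 and 1056 with 65–79*SE and 719, 889 and 906 with 65–79*PE. SE overlapped PBS there, while every PE library lay below every PBS library. In replicates 4–6 it stood at 313, 370 and 512 CPM with PBS, 223, 215 and 272 with SE and 188, 227 and 255 with PE, and both peptide groups lay wholly below PBS. How many of all genes separate in this way is not given here either. Ly6e fell in replicates 4–6 by a log2 change of −0.75 with 65–79*SE (95% interval −1.15 to −0.35, adjusted p = 0.0332, edgeR), beside 2.21% of the 14183 genes called, and of −0.83 with 65–79*PE (−1.23 to −0.44, adjusted p = 0.0113, edgeR), beside 3.58%. The same PBS libraries enter both values, and the highest of them is 1.64 times the lowest. In replicates 1–3 the values were 0.03 with SE (−0.36 to 0.43, adjusted p = 0.934, edgeR; 6.17% of genes called) and −0.24 with PE (−0.63 to 0.16, adjusted p = 0.466, edgeR; 3.48% called). The difference between the sets did not pass its test for PE (adjusted p = 0.429, edgeR). For SE it did not pass as fitted (adjusted p = 0.0783, edgeR) and passed with a replicate block (adjusted p = 0.00658, edgeR), with no filter on low counts (adjusted p = 0.00193, edgeR), with DESeq2 (adjusted p = 0.0303) and without replicate 1 (adjusted p = 0.0381, edgeR).

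The call for SE in replicates 4–6 was lost without replicate 2, 3, 4, 5 or 6, where the adjusted p by edgeR ran from 0.0571 to 0.183, and that for PE without replicate 5 or 6 (adjusted p = 0.119 and 0.0544, edgeR). Between the peptides, Ly6e differed by 0.27 (95% interval −0.12 to 0.67, adjusted p = 1, edgeR) in replicates 1–3 and 0.08 (−0.31 to 0.48, adjusted p = 0.935, edgeR) in replicates 4–6, and the first interval reaches past a 1.5-fold change. Of all genes, 0% were called by edgeR in either set for this contrast. At an unadjusted p under 0.05 there were 570 and 1321 genes, and DESeq2 called 0 and 46.

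**Figure D4:**
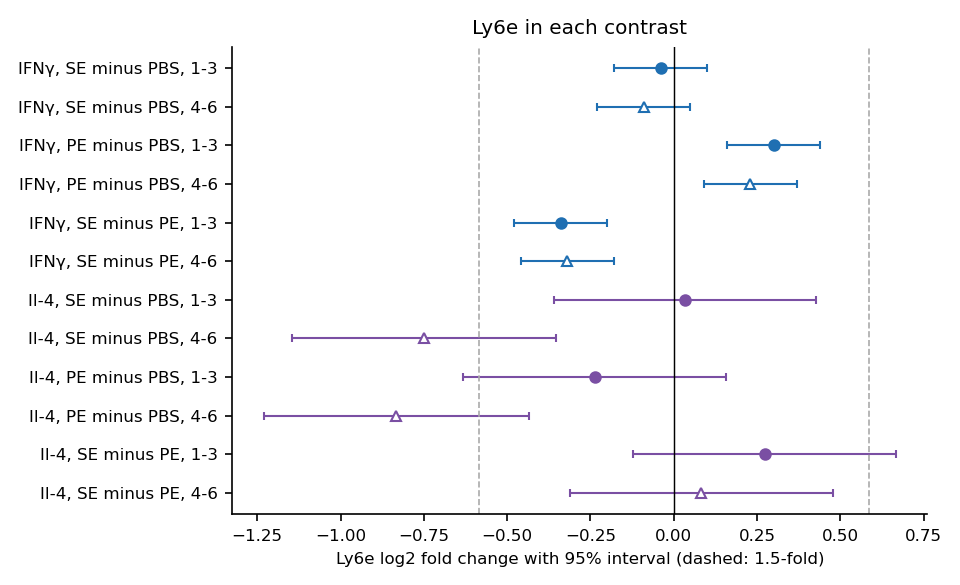
Log2 fold change of Ly6e (x axis) with its 95% interval in the 12 contrasts (y axis), circles for replicates 1–3 and triangles for 4–6, blue for the IFNγ and purple for the Il-4 series; dashed lines mark 1.5-fold. The IFNγ intervals stay within the dashed lines, and in the Il-4 series the points of replicates 4–6 against PBS lie beyond the dashed line on the left. Intervals of PE against PBS in the IFNγ series are a description only, since the choice of members used that contrast.

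Around the members, the cluster held 11 other protein-coding genes between Ly6d and Ly6f, and noncoding genes were not examined. In the IFNγ series 8 of these never exceeded 2 counts in a library, and 3 did: 2010109I03Rik, Ly6g (an antigen of neutrophils) and Ly6f. With 65–79*SE in replicates 1–3, Ly6f had 27 counts against 0 with PBS (at least 8.38-fold), Ly6g 17 against 0 (at least 5.28-fold) and 2010109I03Rik 41 against 7 (ratio 5.45, counting interval 2.42 to 14.4). Ly6g did not pass the filter on low counts and was not tested. The protein-coding genes beyond 2010109I03Rik on the side of Ly6d stayed at 0 to 2 counts, so 2010109I03Rik was the outermost of the cluster genes on that side with more than 2 counts in a library.

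**Figure D5:**
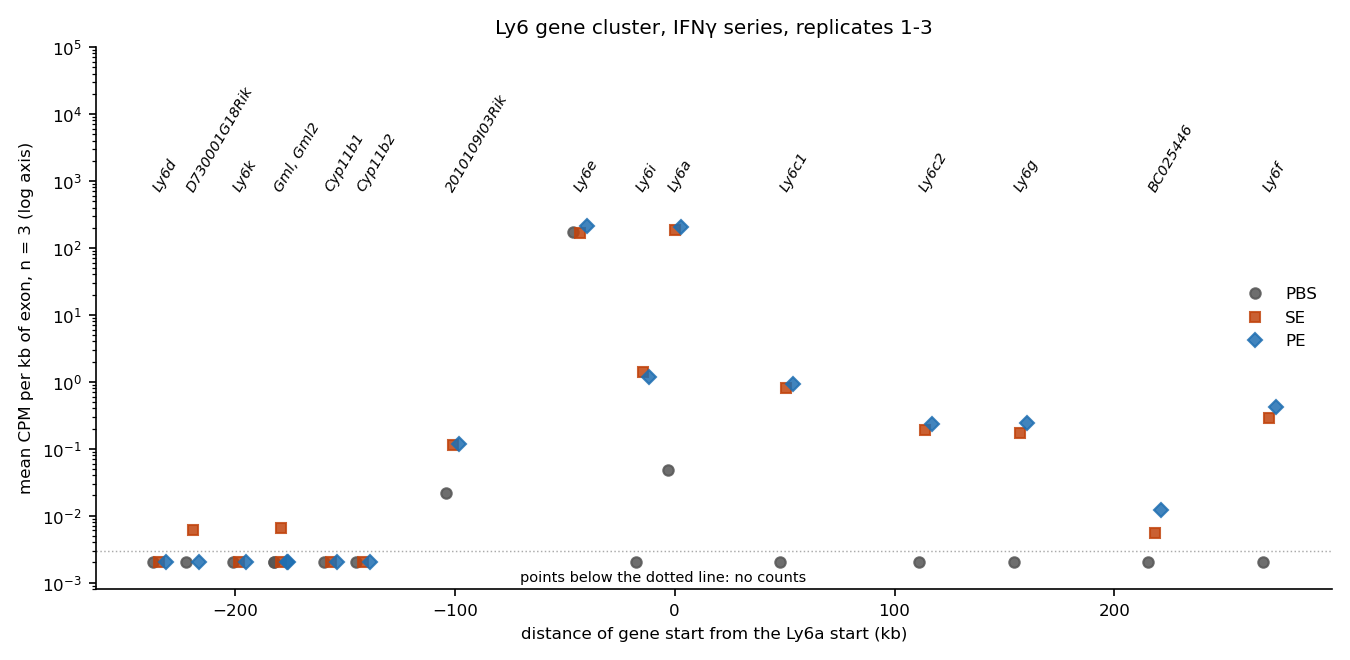
Mean CPM per kb of exon (y axis, log scale, n = 3) of the protein-coding genes of the Ly6 cluster against the distance of their start from that of Ly6a in kb (x axis), for PBS, SE and PE libraries of replicates 1–3 in the IFNγ series. Ly6e is high in all 3 groups, Ly6a reaches the Ly6e level per kb of joined exons with SE and PE, and Ly6i, Ly6c1, Ly6c2, Ly6g and Ly6f have no counts with PBS.

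Of 45 other genes with a Ly6/uPAR domain, 38 were in the tables and 9 passed the filter in the IFNγ series. With 65–79*SE against PBS in replicates 1–3, Cd177, a neutrophil antigen, was called higher (0.784 ± 0.161 against 0.208 ± 0.0457 CPM, SD, n = 3, adjusted p = 0.000512, edgeR), beside 21.2% of all genes called. Ly6f, 2010109I03Rik and I830127L07Rik (39 counts against 0, at least 12.1-fold) also had more counts with SE, but they passed the filter through peptide libraries in which they were high, so no test against PBS is given for them. In the libraries labelled 65–79*SE of replicates 4–6, 0 of the 9 were called by edgeR or DESeq2 and 1 had an unadjusted p under 0.05. Of all genes 2.04% were called there, so nothing about this list is read from the 0. Between the peptides in replicates 1–3, Cd177 was the one gene of this list past both thresholds, higher with 65–79*SE by a log2 change of 1.15 (SE 0.359, adjusted p = 0.0305, edgeR), a call that DESeq2 did not make, while Plaur (0.54, adjusted p = 0.000281, edgeR) and Cd59a (−0.41, adjusted p = 0.0408, edgeR) passed the adjusted p and stayed under 1.5-fold. Of all genes, 5.33% were called between the peptides in replicates 1–3. In replicates 4–6 Cd177 (−1.88, adjusted p = 0.0148, edgeR) was called lower in the libraries labelled SE, beside 13.9% of all genes called. There 2010109I03Rik had 25 counts with PE against 0 (at least 6.06-fold). It passed the filter only with the PE libraries of replicates 1–3 included, so no test between the peptides is given for it. In the Il-4 series 3 genes of the list were tested, and the one call was Plaur, the urokinase receptor, lower with 65–79*PE in replicates 4–6 (17.2 ± 1.84 against 26.6 ± 0.599 CPM, SD, n = 3, log2 change −0.63, adjusted p = 0.00244, edgeR), beside 3.58% of all genes called.

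Some genes of the IFNγ signalling list were called in each series. In the IFNγ series, of 9 such genes (Ifngr1, Ifngr2, Jak1, Jak2, Stat2, Irf1, Irf8, Irf9 and Socs1), 5 were called higher and 0 lower with 65–79*SE in replicates 1–3, beside 21.2% of all genes called in either direction. In the libraries labelled SE of replicates 4–6, 0 were called by edgeR or DESeq2, beside 2.04% of all genes, and 2 had an unadjusted p under 0.05 by edgeR. With 65–79*PE, 4 were called higher in each set, Stat2, Irf1, Irf8 and the feedback inhibitor Socs1, and in replicates 1–3 Ifngr2, a receptor chain, was called lower, beside 18.5% of all genes called in replicates 1–3 and 11.2% in replicates 4–6. In the Il-4 series, where Ly6a did not rise, Socs1 was called higher in replicates 1–3 with SE (log2 change 2.42, adjusted p = 0.000106, edgeR) and PE (2.40, adjusted p = 0.000109, edgeR) and in replicates 4–6 with PE (1.05, adjusted p = 0.0344, edgeR). Jak2 was also called higher in replicates 4–6 of that series with SE (0.77, adjusted p = 0.0469, edgeR) and Stat2 lower with PE (−0.62, adjusted p = 0.00905, edgeR). Of all genes in the Il-4 series, 6.17% (SE) and 3.48% (PE) were called against PBS in replicates 1–3. The shares in replicates 4–6 were 2.21% (SE) and 3.58% (PE). The lower level of Ly6a with PE in replicates 4–6 (115 ± 7.92 against 243 ± 14.5 CPM, SD, n = 3) was not shared by Irf1 (117 ± 1.95 against 105 ± 9.53 CPM). Ly6e had a lower level in replicates 4–6 in all 3 groups, PBS included (327 ± 12.5 against 645 ± 23.8 CPM). The TMM factors also differed between the sets in this series, at 1.11 to 1.16 in replicates 1–3 and 0.812 to 0.926 in replicates 4–6. Without these factors, on plain library totals, the gap was wider in Ly6a with PE, at 103 CPM against 277. It was wider too in Ly6e with PBS, at 291 CPM against 735. The cause of the lower levels was not tested.

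Markers of other cells gave few counts, apart from Lck. The summed level of 6 T and NK cell markers ran from 7.29 to 18.4 CPM in the IFNγ series and was nearly all Lck, which in replicates 1–3 was at 9.11 ± 1.68 CPM with PBS, 16.2 ± 1.63 CPM with SE and 17.8 ± 0.764 CPM with PE. The 5 neutrophil markers summed to 0.0312 to 0.151 CPM with PBS, 0.582 to 0.795 CPM with SE and 0.34 to 0.587 CPM with PE in replicates 1–3. The rise with both peptides lay mostly in Ngp and Ly6g, and Ly6g is itself a gene of the Ly6 cluster. Of the 5 markers, Ngp had 0, 41 and 11 counts and Ly6g 0, 17 and 24 over the PBS, SE and PE libraries of that set, S100a8 10, 14 and 9, and Camp 0, 0 and 1, while S100a9 was at 0 in all of them. Their sum in replicates 4–6 was 0.108 to 0.26 CPM with PBS, 0.203 to 1.38 CPM in the libraries labelled SE and 0.0969 CPM or more with PE, and the ranges of the 3 groups overlapped. The 5 fibroblast and endothelial markers to at most 0.701 CPM, the 4 B cell markers to at most 0.323 CPM and the 5 stem and progenitor markers to at most 0.305 CPM. The part of other cells in the Ly6 levels was not tested.

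Over the 18 IFNγ libraries, the genes whose log2 CPM was most like that of Ly6a, among 9096 genes at 10 CPM or more, were Serpina3f (Pearson r = 0.996), C1ra (0.995), Psme1 (0.995), H2-Ea-ps (0.994) and H2-Aa (0.993). H2-Aa, an MHC class II chain, was at 0.118 ± 0.0235 CPM in PBS libraries of replicates 1–3, 546 ± 40.6 CPM in SE and 828 ± 46.3 CPM in PE libraries, and Psme1, a proteasome activator subunit, at 84.9 ± 3.36, 252 ± 6.65 and 269 ± 6.52 CPM (SD, n = 3). Serpina3f stood higher with SE (74.3 ± 10.1 CPM) than with PE (34.2 ± 3.87 CPM) in that set. The genes most like Ly6e were Psmb4, a proteasome subunit (r = 0.990), Gm9396 (0.987), Gm6467 (0.987), Gm3375 (0.986) and Gm10275 (0.985), and like Ly6e they were lower in replicates 4–6 in every group, Psmb4 at 81.1 ± 3.03 against 197 ± 6.24 CPM with PBS. These libraries share groups and sets, so the r values are descriptions without a p.

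Ly6c1 and Ly6c2, which changed together, had promoter windows in the RefSeq table (GRCm38.p6), and Ly6a, Ly6e and Ly6i had none. The 250 bases before their start are shown, chr15:75048838-75049087 and chr15:75111972-75112221, on the minus strand.
Ly6c1: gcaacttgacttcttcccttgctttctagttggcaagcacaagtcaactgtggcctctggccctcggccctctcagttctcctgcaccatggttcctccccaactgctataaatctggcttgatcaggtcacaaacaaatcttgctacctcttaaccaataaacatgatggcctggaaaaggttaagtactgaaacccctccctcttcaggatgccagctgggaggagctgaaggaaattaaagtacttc
Ly6c2: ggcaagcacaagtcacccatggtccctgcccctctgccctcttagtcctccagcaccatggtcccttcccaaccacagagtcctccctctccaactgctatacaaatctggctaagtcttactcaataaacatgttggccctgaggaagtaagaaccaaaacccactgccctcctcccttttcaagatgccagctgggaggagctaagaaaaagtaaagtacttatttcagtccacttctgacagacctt
The interferon-γ activated site TTCNNNGAA and the interferon regulatory factor pair GAAANNGAA, searched on both strands of these windows with the first 50 bases of the gene, had 0 matches in either gene, and were found in 8.30% and 8.56% of the 32851 windows of the table. No match says only that these letters are not in this window.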

How the data were processed

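RNA-seq was done on RAW264.7 cells in 2 series of 18 libraries. The authors prepared stranded poly(A) libraries, sequenced single ends, and used featureCounts for reads with a unique alignment; per the labels the build was GRCm38.p5, and the aligner and strand setting are not given in the sources used here. The deposited values were raw counts, with no normalization, and 0 columns were left unused. Gene positions came from GENCODE M21 by symbol (47214 of 49568 names matched), a later release than the authors used.

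Counts were fitted per series in R 4.3.3 with edgeR 4.0.16 (quasi-likelihood test, TMM, filterByExpr) over 6 cells of group by replicate set. Calls needed a Benjamini-Hochberg adjusted p under 0.05, over all genes tested, and a fold over 1.5; set differences were called on the adjusted p alone. DESeq2 1.42.0 was an alternative, as were other normalizations, filters, set terms and left-out replicates. Intervals of log2 values use the standard error of the fit, and counting intervals are exact binomial ones. Folds against a group at 0 were computed against 3 counts over that group, and no test is quoted for them against PBS. The scripts were tested on simulated counts. The members and the gene lists were chosen with earlier results of these data known, and the named genes were the members, the genes of the lists that were called, and the 5 genes with the highest Pearson r with Ly6a and with Ly6e. Examples were taken from the counted lists after their values were seen, Ly6g and Lck among them. Of the IFNγ signalling list, 1 gene is not reported here. Of 36 within-set library pairs, the closest still differed by 5.23 times the sampling variance.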

Additional observations from a re-analysis of the deposited data

Results flagged for a closer look

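Ly6a in the Il-4 series had 2 libraries far from the others of their group: PBS replicate 2 at 0.160 CPM and 65–79*SE replicate 3 at 0.168 CPM, each 4 counts where the other 5 libraries held 0 or 1. Of 17 member and group combinations with over 3 counts in a library these were 2. At counts this low no chance rate can be given for them. The difference of 65–79*SE from 65–79*PE in the IFNγ series was not the same in replicates 4–6 as in replicates 1–3 for Ly6i (adjusted p = 0.000247, edgeR) and Ly6c1 (adjusted p = 0.0194, edgeR). Both genes were at or near 0 in the libraries labelled 65–79*SE of replicates 4–6 and at the level of 65–79*PE in replicates 1–3.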

How the results depend on the processing

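Counts of members are of Ly6e, Ly6c1, Ly6c2 and Ly6i, those against PBS resting on genes at 0 there, from which nothing is read, and other values are log2 changes of Ly6e. Pooling the 6 replicates with an additive set term gave the same value for both sets, so its results belong to neither set alone. In the IFNγ series it gave 3 members called for 65–79*SE against PBS and 0 for SE against PE. In the Il-4 series SE against PBS was −0.366 (adjusted p = 0.15, edgeR) and PE against PBS −0.551 (adjusted p = 0.0242, edgeR, under 1.5-fold). With no set term it was 0 members for SE against PBS in replicates 1–3 and for SE against PE in replicates 4–6, 0.277 for PE against PBS (IFNγ), and −0.15 and −0.385 in the Il-4 series. Each set fitted alone, where Ly6e alone passed the filter in replicates 4–6, gave 0 members for SE against PE there and −0.75 for SE against PBS in the Il-4 series (adjusted p = 0.088, edgeR). Without the fold threshold Ly6e was called, giving 1 member for SE against PE in replicates 1–3. On protein-coding genes only, PE against PBS (IFNγ, replicates 1–3) was 0.366, its set difference −0.157, and SE against PBS 0.004. The set difference of SE against PBS in the Il-4 series was −0.785 and passed with DESeq2 (−0.788, adjusted p = 0.0303), with no filter (−0.827, adjusted p = 0.00193, edgeR) and with a replicate block (−0.742, adjusted p = 0.00658, edgeR). The cause was not tested.

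Not every same-numbered pair correlated over 0.1, so pairing was not used: 2 of 18 pairs did in the IFNγ series (−0.126 to 0.125) and 12 of 18 in the Il-4 series (−0.11 to 0.395, median 0.149), against 2 and 3 of 36 pairs with unlike numbers (median −0.089 in Il-4), and 2 and 11 of 18 libraries correlated best with their own number, a hint from the data, not the design. The replicate block moved calls over all genes in the Il-4 series from 313 to 743 for SE and from 508 to 780 for PE against PBS in replicates 4–6, from 493 to 763 for PE in replicates 1–3, and from 0 to 4 for SE against PE in replicates 4–6; no count of IFNγ calls against PBS or between peptides moved by over 1.5 times.

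Leaving out 1 replicate number in turn, the IFNγ series gave 1 to 2 members for SE against PE in replicates 4–6 (1 without replicate 6). Ly6e ranged there from −0.092 to 0.006 for SE against PBS and from 0.24 to 0.354 for PE against PBS in replicates 1–3, with set differences of −0.15 to 0.002, −0.159 to −0.011 and, for SE against PE, −0.019 to 0.088. In the Il-4 series it ranged from −0.071 to 0.147 for SE against PBS in replicates 1–3, from −0.831 to −0.624 (SE) and −0.895 to −0.7 (PE) in replicates 4–6, and from −0.919 to −0.675 for the set difference of SE against PBS, which passed without replicate 1.

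Counts over all genes called also moved, here with all replicates kept. In the IFNγ series SE against PBS gave 22 to 7235 calls in replicates 1–3 (3573 as reported) and 22 to 763 in replicates 4–6 (343), PE against PBS 909 to 6870 (3109) and 909 to 4338 (1882), and SE against PE 78 to 3036 (898) and 78 to 5378 (2336). In the Il-4 series SE against PBS gave 62 to 1937 (875) and 62 to 893 (313), PE against PBS 115 to 943 (493) and 115 to 805 (508), and SE against PE 0 to 19 (0) and 0 to 301 (0). With at least 10 counts in every library only Ly6e of the members was kept. Leaving out 1 replicate number, SE against PBS in the Il-4 series ran from 105 to 1646 and from 60 to 490 calls, PE against PBS from 92 to 585 and from 113 to 532. Counts of 0 to 21 per library limit what can be said of Ly6c1, Ly6c2 and Ly6i in replicates 4–6.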
